A study of Mus musculus with 19 samples.

Results

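The platelet-derived growth factor (PDGF) system of the mouse consists of 6 genes, the receptors Pdgfra and Pdgfrb and the ligands Pdgfa, Pdgfb, Pdgfc and Pdgfd. They were found by matching the Ensembl identifiers of the deposited counts to mouse gene symbols, and all 6 were among the 55487 gene rows. Of these rows, 23696 held at least 1 count and 15138 passed the filter on low counts, including 5 of the 6 members. Pdgfc held no count in any library and was not tested. The members were chosen by name and not by a limit on the values below, but with earlier results of these data known.

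PDGFs are secreted dimers that bind receptor tyrosine kinases on the cell surface, and the bound receptors pair, phosphorylate each other and recruit adaptors of the Ras, PI3-kinase and phospholipase C pathways. PDGF-A binds the alpha receptor only and PDGF-B binds both receptors, while PDGF-C and PDGF-D are released as latent proteins that proteases must cleave, PDGF-C acting mainly through the alpha and PDGF-D mainly through the beta receptor. In the liver, hepatic stellate cells (HSCs) are the vitamin A-storing pericytes of the sinusoid, and PDGF is known as a strong mitogen and attractant for them once they turn into myofibroblasts.

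RNASeq was measured in untreated HSCs of healthy male Balb/c mice aged 23 to 24 weeks, which were sorted by the ultraviolet fluorescence of their vitamin A. Freshly isolated HSCs (0 h, 2 samples) were collected without culture. The other cells were sorted onto collagen-coated plates with 24 wells in Dulbecco's modified Eagle's medium with 10% fetal bovine serum, antibiotics and glutamine. Collection followed at 3, 6, 12, 18 and 96 h, with 3 samples each, and at 24 h, with 2, and the medium was renewed after 3 h and 24 h. All groups share the strain, the sort and the absence of treatment, and culture on collagen is the only model of activation in these samples, so time and culture cannot be told apart against 0 h. Each sample represents 2 technical repeats, which the counts do not separate. The labels number the samples M1, M2 and M3. M1 has no sample at 0 h and M3 has none at 24 h, and M1 and M3 carry one isolation date and M2 another. The labels do not say whether a number stands for 1 animal or a pool, so the p-values measure the spread between these samples.

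The libraries held 2073171 to 7690892 counts, with a median of 4954915, and the smallest was M3 at 0 h. Levels are given as CPM, the count relative to the library total after scaling by the trimmed mean of M values (TMM). The libraries were made from 3′ ends, so a CPM was not divided by gene length and is compared between samples for 1 gene, never between genes. A floor of 3 counts corresponded to 0.385 to 1.50 CPM, and floors cover counting error only, since reads carried no molecular identifiers. The summed level of 12 stellate cell markers was 14284 to 17807 CPM at 0 h and 787 to 955 CPM at 96 h, with Gfap at 0 in every library from 6 h on and Ngfr from 18 h on. That of 8 myofibroblast markers was 3071 to 3817 CPM at 0 h, lower between 6 and 24 h, at 1289 to 2524 CPM, and 5920 to 8052 CPM at 96 h. Among lists for other cells, the sum of 9 hepatocyte markers was 3347 to 7214 CPM at 0 h and at most 338 CPM in any library from 6 h on, and that of 10 Kupffer cell markers was 469 to 569 CPM at 0 h and at most 53.1 CPM from 6 h on. The sum of 7 portal fibroblast markers was 109 to 119 CPM at 0 h and 6.10 to 21.99 CPM at 12 h, and that of 5 vascular smooth muscle markers was highest at 96 h, at 85.7 to 109.8 CPM against 19.3 to 28.1 CPM at 0 h. Detection was uneven between samples of 1 timepoint: 4969 genes (32.8% of those tested) had a library at 0 and another at 50 counts or more in the same timepoint.

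A gene was called when the adjusted p of edgeR's quasi-likelihood test was below 0.1 and the fold change above 2. Figures in parentheses after a log2 fold change are its standard error (SE), derived as its size divided by the square root of the F statistic of that test. Each timepoint was compared with the same 2 samples at 0 h, so these comparisons are not independent of each other.

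The members differed in direction. Both receptors fell in culture, Pdgfa rose, and Pdgfd fell to no count between 12 and 24 h and was counted again at 96 h. At 3 h, 0 members were called against 0 h, where 5.58% of all genes were called in either direction. Pdgfra alone had an unadjusted p below 0.05 there, and DESeq2 called 1 member. At 6 h, 1 member, Pdgfra, was called lower and 1, Pdgfa, higher, where 11.3% of all genes were called, 4.35% lower and 6.98% higher. At 12 h, 3 members were lower and 1 was higher, where 17.7% of all genes were called, 9.1% lower and 8.6% higher. The same numbers of members were called at 18 h, where 15.9% of all genes were called, 8.21% lower and 7.64% higher. At 24 h, 2 members were lower and 1 was higher, beside 9.51% of all genes, 3.86% lower and 5.65% higher. These numbers were found again at 96 h, beside 10.9% of all genes, 5.03% lower and 5.83% higher. In the test of any difference between the 7 timepoints, which called 27.4% of all genes, the adjusted p by edgeR was 2.83e-05 for Pdgfra, 0.00607 for Pdgfrb, 7.58e-07 for Pdgfa, 0.0796 for Pdgfd and 0.426 for Pdgfb.

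**Figure D1:**
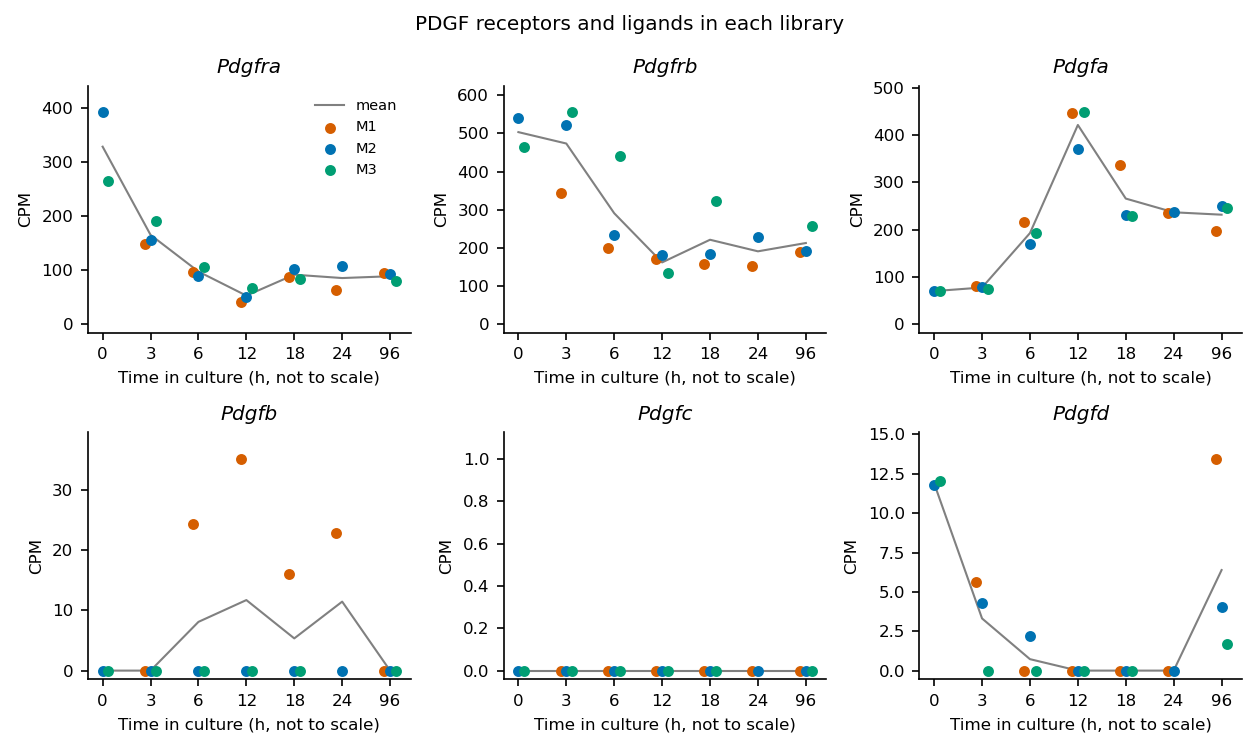
Level of each receptor and ligand in CPM (y axis, its own scale in each panel) at each time in culture (x axis, evenly spaced and not to scale), with 1 point per library coloured by its M number and a line through the mean of each timepoint. Both receptors fell towards 12 h and Pdgfa rose towards 12 h, Pdgfb was counted only in M1 at 6, 12, 18 and 24 h, Pdgfc was 0 in all 19 libraries, and Pdgfd was 0 in every library at 12, 18 and 24 h.

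Sequence before the start site is shown for the members that moved, the alpha receptor that fell, the ligand that rose and the ligand that fell to 0 and came back, so that they can be set side by side. The reference table of RefSeq promoters (GRCm38.p6) held 5 entries for 4 of the 6 members, Pdgfra, Pdgfa with 2 start sites, Pdgfc and Pdgfd. Capitals mark matches to a searched motif, and each run reads 5′ to 3′ on the strand of the gene. The run of Pdgfra is at chr5:75152001-75152250 on the plus strand, that of Pdgfa, from its upstream start site, at chr5:138995025-138995194 on the minus strand, and that of Pdgfd at chr9:6168236-6168485 on the plus strand. The run of Pdgfa was ended 13 bases into an annotated exon of the gene, after the last match.
Pdgfra: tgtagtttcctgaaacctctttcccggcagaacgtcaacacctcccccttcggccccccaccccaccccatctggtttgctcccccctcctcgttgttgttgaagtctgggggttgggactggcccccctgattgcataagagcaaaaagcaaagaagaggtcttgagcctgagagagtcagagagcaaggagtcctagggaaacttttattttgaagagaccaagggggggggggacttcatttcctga
Pdgfa: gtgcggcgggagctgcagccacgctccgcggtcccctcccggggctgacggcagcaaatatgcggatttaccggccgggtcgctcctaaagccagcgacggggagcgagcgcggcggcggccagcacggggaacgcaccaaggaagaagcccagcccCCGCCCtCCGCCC
Pdgfd: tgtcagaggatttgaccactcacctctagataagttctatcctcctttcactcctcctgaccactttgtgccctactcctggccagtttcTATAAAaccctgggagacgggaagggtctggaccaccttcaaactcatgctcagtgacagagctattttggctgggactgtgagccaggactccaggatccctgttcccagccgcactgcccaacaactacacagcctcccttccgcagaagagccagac

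The motifs searched on both strands of the 250 bases before and 50 after each start site were the GC box bound by Sp1 (GGGCGG), the EGR motif (GCGGGGGCG), the AP-1 motif (TGANTCA), the TEAD motif (CATTCC), the TATA box (TATAAA) and the CArG box of serum response factor. A GC box and an EGR motif may share letters. Of 32851 promoters in the table, 35.7% held a GC box, 2.91% an EGR motif, 7.81% an AP-1 motif, 14.7% a TEAD motif, 13.6% a TATA box and 1.63% a CArG box. Pdgfra held none of these letters. Pdgfa held 2 GC boxes at its upstream start site, beginning at -93 and -86 from the start, and 1 at its downstream start site, at -60. Both upstream boxes lie in the 13 bases of annotated exon that end the printed run. In the downstream window, an annotated exon of the gene begins after 47 bases, ahead of the box at -60. Pdgfd held a TATA box at -160, and Pdgfc, which was not counted here, held 2 TEAD motifs and 1 CArG box. The printed run of Pdgfa has a GC content of 73.5%, against 54.4% in that of Pdgfra and 53.6% in that of Pdgfd. These matches are a description of the letters in a window and no measure of binding.

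Pdgfra, the receptor that PDGF-A, PDGF-B and PDGF-C bind, was lower in every cultured library than in freshly isolated HSCs. The gene (ENSMUSG00000029231) lies at chr5:75152292-75198215 on the plus strand of GRCm38. In freshly isolated HSCs it was at 266 CPM in M3 and 392 CPM in M2, and at 3 h it was at 149, 192 and 156 CPM in M1, M3 and M2. At 6 h it was at 97.2, 107 and 88.6 CPM, and at 12 h at 41.9, 66.9 and 49.6 CPM in the same order. The cultured libraries were thus all below both at 0 h, and the 3 libraries at 12 h held 3 of the 4 lowest levels, the other being M1 at 24 h. At 18 h it was at 87.6, 84.4 and 103 CPM, at 24 h at 63.2 CPM in M1 and 108 CPM in M2, and at 96 h at 94.7, 79.5 and 92.1 CPM in M1, M3 and M2. From 18 h on, the timepoints overlapped with each other and with 6 h.

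The mean of Pdgfra went from 329 ± 89.8 CPM at 0 h (SD, n = 2) to 165 ± 23.1 CPM at 3 h (SD, n = 3) and 52.8 ± 12.8 CPM at 12 h (SD, n = 3), and was 88.8 ± 8.08 CPM at 96 h (SD, n = 3). Its log2 fold change was -0.99 at 3 h (SE 0.27), with an adjusted p of 0.0464 by edgeR, and the fold of 1.99 missed the limit of 2, so it was not called. It was -1.76 (SE 0.27) at 6 h, with an adjusted p of 0.000424 by edgeR, and -2.64 (SE 0.27) at 12 h, with 5.63e-06. From 18 to 96 h it stayed between -1.95 and -1.85, with adjusted p-values by edgeR of 0.000177 at 18 h, 0.000566 at 24 h and 0.000204 at 96 h. The fall was present in each number that had a sample at 0 h, by 2.93 on the log2 scale in M2 and by 1.96 in M3 at 12 h, both computed after adding 2 CPM. In bulk samples, fewer cells that express a gene and less RNA per cell cannot be told apart, and the hepatocyte, Kupffer cell and portal fibroblast sums were also lower at 12 h than at 0 h, where their part in the fall of either receptor was not tested. The sum of the 10 sinusoidal endothelial markers was 832 to 1194 CPM at 0 h and 218 to 936 CPM at 12 h, which overlap, and its part was not tested either. Within culture, Pdgfra fell further between 3 h, where the hepatocyte sum was 399 to 1218 CPM, and 12 h, where it was 94.4 to 155 CPM. The log2 fold change was -1.65 (SE 0.25) and the adjusted p 0.000359 by edgeR.

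After 12 h no step of Pdgfra was called. From 12 to 96 h its log2 fold change was 0.75 (SE 0.24), with an adjusted p of 0.0638 by edgeR and a fold of 1.68, below the limit for a call. The 3 libraries at 96 h, between 79.5 and 94.7 CPM, all lay above the 3 at 12 h. Between 24 h and 96 h the log2 fold change was 0.06 (SE 0.27), with an adjusted p of 1 by edgeR.

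Pdgfrb, the receptor for PDGF-B and PDGF-D and a classical marker of pericytes, was called lower from 12 h on. The gene (ENSMUSG00000024620) lies at chr18:61045150-61085061 on the plus strand. At 0 h it was at 465 CPM in M3 and 541 CPM in M2, and at 3 h it was at 345, 555 and 521 CPM in M1, M3 and M2, so that these timepoints overlapped. At 6 h it was at 199, 440.3 and 233 CPM and at 12 h at 172, 133 and 181 CPM in M1, M3 and M2. The M3 library at 6 h stood close to the freshly isolated HSCs, while at 12 h all 3 libraries were below every library at 0, 3 and 6 h. At 18 h it was at 157, 322 and 184 CPM, at 24 h at 154 CPM in M1 and 228 CPM in M2, and at 96 h at 189, 257 and 191 CPM in M1, M3 and M2. M3 held the highest level of its timepoint at 3, 6, 18 and 96 h and the lowest at 12 h.

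The mean of Pdgfrb was 503 ± 53.7 CPM at 0 h (SD, n = 2), 473 ± 113 CPM at 3 h (SD, n = 3), 291 ± 131 CPM at 6 h (SD, n = 3), 162 ± 25.2 CPM at 12 h (SD, n = 3) and 213 ± 38.9 CPM at 96 h (SD, n = 3). Its log2 fold change at 3 h was -0.09 (SE 0.35), with an adjusted p of 0.997 by edgeR, and its sign turned to 0.12 without the M1 library at 3 h. At 6 h it was -0.79 (SE 0.35), with an adjusted p of 0.193 by edgeR, and without the M3 library at 6 h it was -1.22 and called, with an adjusted p of 0.0374. Within a number, the log2 change from 0 to 6 h was -1.21 in M2 and -0.080 in M3.

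Pdgfrb was called lower at 12 h with a log2 fold change of -1.64 (SE 0.35) and an adjusted p of 0.00434 by edgeR. Of all its comparisons with 0 h, this one was called under each of the 28 alternatives, with adjusted p-values of 6.56e-06 to 0.0398. At 18, 24 and 96 h the log2 fold changes were -1.19, -1.40 and -1.24, with SEs of 0.35, 0.40 and 0.35 and adjusted p-values by edgeR of 0.0351, 0.0398 and 0.0356. These 3 calls rested on single libraries. Without the M2 library at 0 h, the adjusted p-values by edgeR were 0.156, 0.169 and 0.205. The call at 18 h was also lost without the M1 or the M2 library of that timepoint (adjusted p 0.123 and 0.101 by edgeR), that at 24 h without its M1 library (0.324), and that at 96 h without its M1 or M2 library (0.112 and 0.114). Within culture, Pdgfrb was lower at 12 h than at 3 h with a log2 fold change of -1.55 (SE 0.33) and an adjusted p of 0.00457 by edgeR. At 96 h it differed from 12 h by 0.40 (SE 0.32), with an adjusted p of 0.481 by edgeR.

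**Figure D2:**
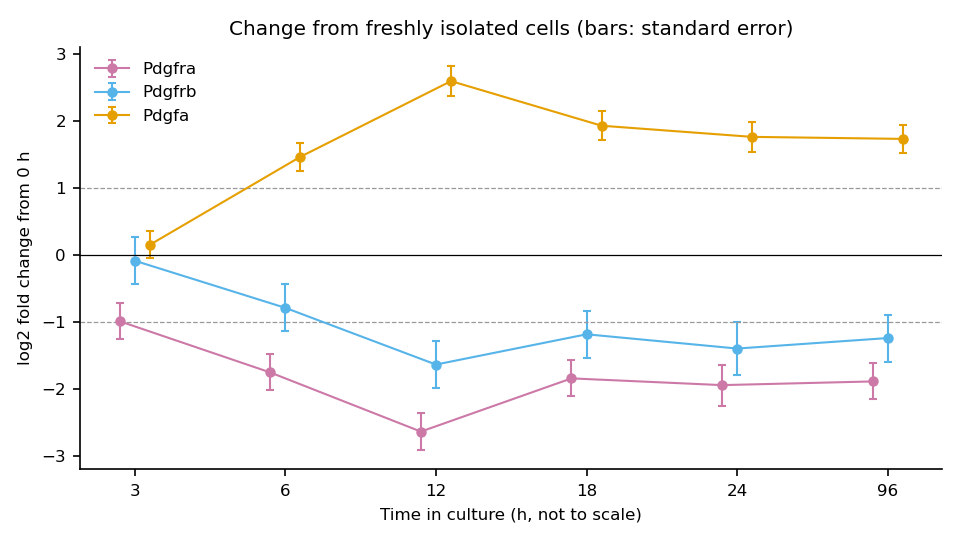
log2 fold change from freshly isolated HSCs (y axis) of Pdgfra, Pdgfrb and Pdgfa at each time in culture (x axis, evenly spaced and not to scale), with bars for the standard error derived from the edgeR test and dashed lines at a fold of 2. Pdgfra reached -2.64 and Pdgfa 2.59 at 12 h, Pdgfrb was at -0.09 at 3 h and at -1.64 at 12 h, and the lines ran nearly flat between 18 and 96 h.

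The balance of the receptors was read as the log2 ratio of the counts of Pdgfra to those of Pdgfrb within each library, which needs no scaling between libraries. Because both are 3′ counts, its absolute value has no meaning in molecules, and only its change does. It was -0.46 in M2 and -0.81 in M3 at 0 h, and every cultured library was lower than -0.81. Its mean was -0.64 ± 0.24 (SD, n = 2) in freshly isolated HSCs and, after 3 h, -1.49 ± 0.27 (SD, n = 3). It was -1.63 ± 0.56 (SD, n = 3) after 12 h of culture and -1.25 ± 0.39 (SD, n = 3) after 96 h. Within culture the means of the timepoints lay between -1.63 and -1.18, while at 18 h alone the ratio was -0.84 in both M1 and M2 and -1.93 in M3. Differences between the 7 timepoints made up 37.8% of the sum of squares, which a one-sided permutation test over the 19 samples with 100000 resamples did not separate from the spread within timepoints (p = 0.369). The test took all 7 timepoints together and did not compare 0 h with culture. The higher ratio at 0 h was not tested by itself and is given as values, without a call.

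**Figure D3:**
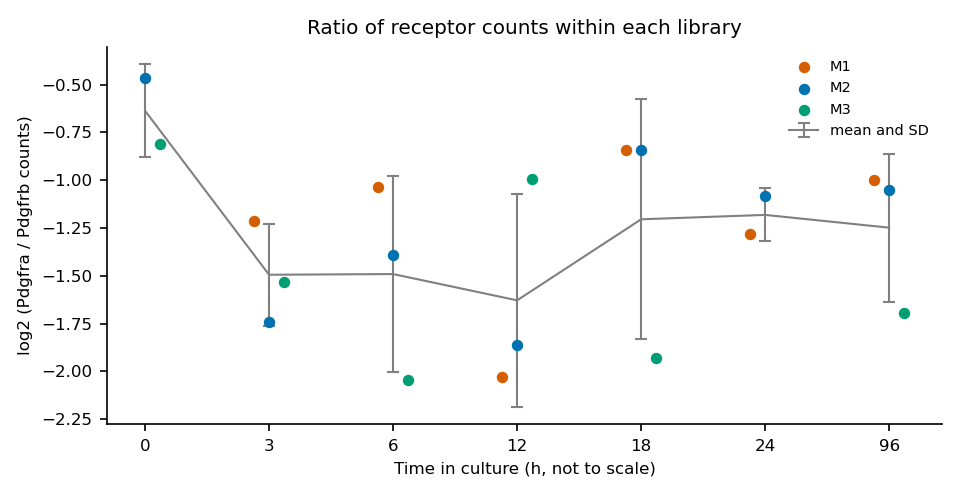
log2 ratio of Pdgfra to Pdgfrb counts in each library (y axis) at each time in culture (x axis, evenly spaced and not to scale), coloured by M number, with the mean and SD of each timepoint. The libraries at 0 h, at -0.46 and -0.81, lie above all cultured ones, and M3 lies far below M1 and M2 at 18 h.

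Pdgfa, which encodes the chain that signals through the alpha receptor only, rose in culture. The gene (ENSMUSG00000025856) lies at chr5:138976014-138997370 on the minus strand. At 0 h it was at 69.1 CPM in M3 and 70.6 CPM in M2, and at 3 h at 79.8, 73.5 and 79.0 CPM in M1, M3 and M2. At 6 h it had reached 216, 193 and 169 CPM, and at 12 h 446, 448 and 370.2 CPM in the same order. The timepoints 3, 6 and 12 h did not overlap, and every library at 12 h was above every library of any other timepoint. At 18 h it was at 338, 229 and 230.4 CPM, at 24 h at 236 CPM in M1 and 238 CPM in M2, and at 96 h at 198, 246 and 251 CPM in M1, M3 and M2. All libraries from 18 h on thus stood above both at 0 h and below all at 12 h.

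The mean of Pdgfa was 69.9 ± 1.02 CPM at 0 h (SD, n = 2), 77.4 ± 3.41 CPM at 3 h (SD, n = 3), 193 ± 23.8 CPM at 6 h (SD, n = 3), 421 ± 44.3 CPM at 12 h (SD, n = 3) and 232 ± 29.5 CPM at 96 h (SD, n = 3). Against 0 h the log2 fold change was 0.15 (SE 0.20) at 3 h, with an adjusted p of 0.835 by edgeR. It was 1.46 (SE 0.21) at 6 h and 2.59 (SE 0.22) at 12 h, with adjusted p-values by edgeR of 0.000249 and 1.03e-06. At 18, 24 and 96 h it was 1.92, 1.76 and 1.73, with adjusted p-values by edgeR of 1.38e-05, 8.22e-05 and 5.71e-05. Each of these 5 calls was made under all 28 alternatives, as were those of Pdgfra from 6 to 96 h. At 12 h the log2 change within a number was 2.36 in M2 and 2.66 in M3.

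Steps within culture do not use the samples at 0 h, and Pdgfa was the member that moved in the most of them. From 3 to 6 h it rose by a log2 fold change of 1.31 (SE 0.18), with an adjusted p of 0.000919 by edgeR, as the only member called where 4.49% of all genes were. From 6 to 12 h it rose by 1.13 (SE 0.18), with an adjusted p of 0.00343 by edgeR, again as the only member, where 1.84% of all genes were called. From 3 to 12 h, where 14.4% of all genes were called, Pdgfa was higher and both receptors were lower. No step of Pdgfa after 12 h was called. From 12 to 18 h its log2 fold change was -0.67 (SE 0.18), with an adjusted p of 0.227 by edgeR, and from 12 to 96 h it was -0.86 (SE 0.18), with an adjusted p of 0.00431 and a fold of 1.82, below the limit for a call. From 3 to 96 h, where 13.7% of all genes were called, Pdgfa was higher and Pdgfrb lower. That call of Pdgfrb was lost without the M2 library at 96 h (adjusted p = 0.101 by edgeR) and when libraries were scaled by their total only, where the log2 fold change of -0.96 was under the fold limit. Leaving out 1 library also added calls, Pdgfra from 6 to 12 h without M3 at 12 h (-1.09) and Pdgfrb from 3 to 6 h without M3 at 6 h (-1.13).

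Later steps held few calls. From 12 to 18 h, 0 members were called by edgeR or DESeq2, against 0.225% of all genes, and 2 members, Pdgfra and Pdgfa, had an unadjusted p below 0.05. From 18 to 24 h, 0 members were called by either tool, against 0.0396% of all genes, and 0 had an unadjusted p below 0.05. From 24 to 96 h, 0 were called by either tool, against 2.72% of all genes, and only Pdgfd had an unadjusted p below 0.05.

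Pdgfd, a ligand of the beta receptor that urokinase can release from its latent form, was counted at low levels at both ends of the time course. The gene (ENSMUSG00000032006) lies at chr9:6168584-6378850 on the plus strand and contains the gene Ddi1 on the opposite strand. At 0 h it held 24 counts (12.0 CPM) in M3 and 47 counts (11.8 CPM) in M2. At 3 h it held 17 counts (5.63 CPM) in M1, 18 counts (4.31 CPM) in M2 and 0 in M3, and at 6 h 11 counts (2.18 CPM) in M2 and 0 in the other libraries. It held 0 counts in all 8 libraries at 12, 18 and 24 h. At 96 h it held 47 counts (13.4 CPM) in M1, 10 counts (1.68 CPM) in M3 and 21 counts (4.04 CPM) in M2, so the timepoints 0 and 96 h overlapped.

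Against the mean of 11.9 ± 0.184 CPM at 0 h (SD, n = 2), the floor of 3 counts per library, averaged over a timepoint, made Pdgfd at least 22.3-fold lower at 12 h, at least 19.7-fold lower at 18 h and at least 23.1-fold lower at 24 h. Such bounds take the measured mean as exact and cover only the counting error of the zeros, while detection was uneven between samples. The adjusted p-values by edgeR were 0.0641, 0.0741 and 0.181, so Pdgfd was called at 12 and 18 h but not at 24 h, where only 2 libraries were available. DESeq2 called it at 24 h (adjusted p = 0.0664). Both calls were lost without any 1 of the libraries compared, with adjusted p-values by edgeR of 0.125 to 0.147 at 12 h and 0.145 to 0.16 at 18 h. The return at 96 h, to a mean of 6.39 ± 6.22 CPM (SD, n = 3), was at least 12.0-fold above 12 h. This bound is on the mean and not on each library. The adjusted p was 0.0915 by edgeR, and Pdgfd was the only member called where 13.5% of all genes were. The call was lost under 17 of 27 alternatives, among them the model with the M number as a block (adjusted p = 0.122). Another was the fit without the M1 library at 96 h, which held the highest level (adjusted p = 0.173 by edgeR).

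Pdgfb encodes the chain that binds both receptors and is known to be made by endothelial cells and platelets. The gene (ENSMUSG00000000489) lies at chr15:79995874-80014977 on the minus strand. It was counted in 4 of 19 libraries, all of them M1, with 82 counts (24.3 CPM) at 6 h, 152 counts (35.2 CPM) at 12 h, 66 counts (16.1 CPM) at 18 h and 107 counts (22.9 CPM) at 24 h. In M1 at 3 h and at 96 h it held 0 counts, as in every library of M2 and M3. The floors of those 15 libraries lay between 0.385 and 1.50 CPM, far below the levels in M1, but floors cover counting error only. Of the genes tested, 32.8% had a library at 0 and another at 50 counts or more in the same timepoint, and Pdgfb was among them. Its zeros thus do not show that the transcript was absent. Between 6 and 24 h, the M1 library was thus high and the others at 0, and 1 library decided the mean of each timepoint. Pdgfb was not called at any timepoint, with adjusted p-values by edgeR of 0.375 to 0.459 from 6 to 24 h, and without M1 it held no count.

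M1 also stood apart in endothelial transcripts. The summed level of 10 sinusoidal endothelial markers was highest in M1 at every time in culture, with 3455 CPM against at most 1296 CPM in the other libraries at 3 h, 1036 against 470.0 CPM at 6 h, 936 against 219 CPM at 12 h, 655 against 210.4 CPM at 18 h, 637 against 184 CPM at 24 h and 280 against 44.4 CPM at 96 h. The library with the largest sum, M1 at 3 h, held no count of Pdgfb, and neither did the libraries at 0 h, with sums of 832 and 1194 CPM. Single markers of the list took different courses in M1 between 3 and 12 h. Kdr went from 835 to 87.2 CPM, Stab2 from 588 to 70.8 CPM and Pecam1 from 120 to 53.4 CPM, while Cdh5 went from 127 to 243 CPM. Of 6 platelet or megakaryocyte markers, Ppbp, Gp9 and Gp5 were at 0 in all libraries, and the sum of the list in M1 was 0.667 to 1.84 times that of the highest other library. The part of the endothelial transcripts in the Pdgfb counts was not tested, and M1 has no library at 0 h.

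**Figure D4:**
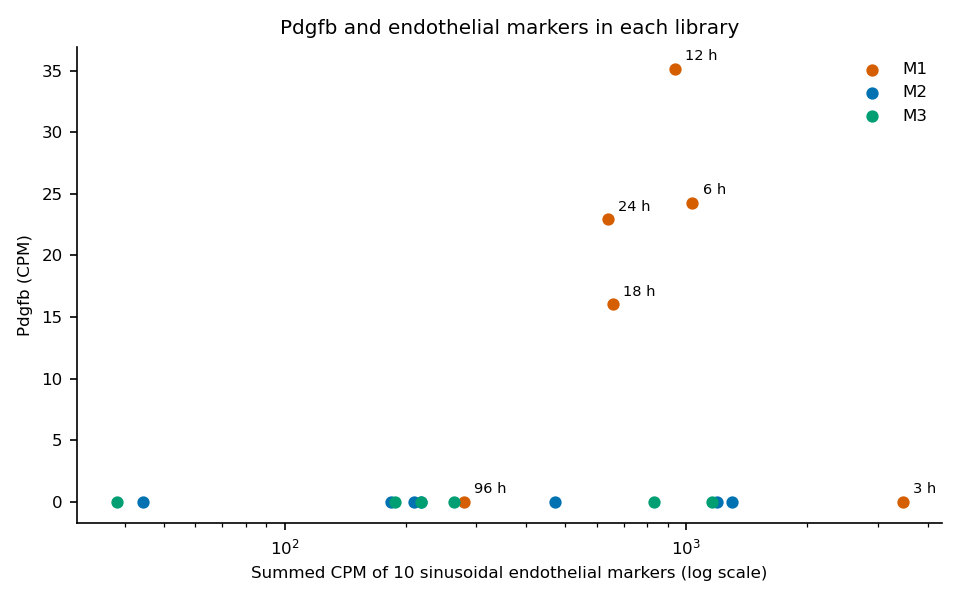
Pdgfb in CPM (y axis) against the summed CPM of 10 sinusoidal endothelial markers (x axis, log scale), with 1 point per library coloured by M number and the times in culture written beside those of M1. The 4 libraries with Pdgfb, all M1, have sums of 637 to 1036 CPM, and the M1 library at 3 h, with the largest sum, is at 0.

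Without the 6 M1 libraries, the directions of the called changes of Pdgfra, Pdgfrb and Pdgfa stayed as given. Pdgfra had a log2 fold change of -2.50 at 12 h and -1.94 at 96 h, and Pdgfa of 2.55 and 1.83, all called, with adjusted p-values by edgeR of 0.000915, 0.00551, 0.000113 and 0.00111. Pdgfrb was called at 12 h only, with -1.68 and an adjusted p of 0.0156 by edgeR, against 0.148, 0.301 and 0.106 at 18, 24 and 96 h. The calls of Pdgfd were lost, with adjusted p-values of 0.223 at 12 h and 0.261 at 18 h.

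Pdgfc (ENSMUSG00000028019), at chr3:81036416-81214040 on the plus strand, was at 0 in all 19 libraries. If a count of 0 is taken to allow 3 counts, the limit on its level ran from 0.385 CPM in M2 at 24 h to 1.50 CPM in M3 at 0 h. That limit covers counting error only, and zeros beside high counts in the same timepoint were common in these libraries. The annotation release used for counting is not known either, so the zeros do not show that the transcript was absent. Whether counting used the strand is not given in the sources used here, and apart from Pdgfrb each member overlaps an annotated gene on the opposite strand, for Pdgfa the antisense gene 6330403L08Rik and for Pdgfb Gm41361. Reads of such pairs could not be separated if the strand was not used.

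Over the 19 samples, Pearson's r of log2 CPM was 0.805 between Pdgfra and Pdgfrb, -0.899 between Pdgfra and Pdgfa and -0.873 between Pdgfrb and Pdgfa. These values describe a time course in which the samples of a timepoint share their time, and they are given without a test. Among genes whose mean reached 10 CPM or more, those most like Pdgfra were Epas1, which encodes a hypoxia-inducible factor subunit (r = 0.917), the T-box factor Tbx20 (0.911) and the receptor tyrosine kinase Fgfr2 (0.908). Epas1 went from 1002 ± 114 CPM at 0 h (SD, n = 2) to 260 ± 69.3 CPM at 12 h (SD, n = 3) and 352 ± 44.3 CPM at 96 h (SD, n = 3). Most like Pdgfrb were Capn6 (0.908), Gnmt, the glycine N-methyltransferase of the liver (0.892), and Selenbp2 (0.883). Capn6 held counts in both libraries at 0 h and none at 12 and 24 h. Selenbp2 held none from 12 h on, and Gnmt had a mean of 0.54 CPM at 12 h and no count at 24 h. Part of these likenesses is thus in zeros. The hepatocyte sum also fell after 0 h, and its part in them was not tested.

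Most like Pdgfa were Ankrd1, a stress-responsive ankyrin repeat protein and target of YAP (r = 0.943), the matrix protein gene Tnc (0.933) and Pgd of the pentose phosphate pathway (0.929). Ankrd1 shared the peak at 12 h, with 32.8 ± 35.8 CPM at 0 h (SD, n = 2), 4459 ± 1515 CPM at 12 h (SD, n = 3) and 1709 ± 312 CPM at 96 h (SD, n = 3). Most like Pdgfd were Cyhr1 (0.885), the nuclear receptor gene Nr2f2 (0.862) and Mylk, the myosin light chain kinase (0.860). Nr2f2 was at 601 ± 7.28 CPM at 0 h (SD, n = 2), 39.2 ± 14.9 CPM at 12 h (SD, n = 3) and 311 ± 114 CPM at 96 h (SD, n = 3), again lowest in the middle of the time course. Most like Pdgfb, which rests on 4 libraries of M1, were Fabp4, a fatty acid-binding protein of capillary endothelium and adipocytes (0.798), Lpar6 (0.794) and Fam43a (0.746).

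Around the receptors, 4 lists of genes were followed in the same fit. The first held 9 genes that process or bind PDGF, of which 8 were tested, and 1 was higher and 2 were lower at 12 h, where 8.6% of all genes were called higher and 9.1% lower. Thbs1, a matricellular protein that binds growth factors, rose from 31.8 ± 11.7 CPM at 0 h (SD, n = 2) to 446 ± 256 CPM at 12 h (SD, n = 3), a log2 fold change of 3.80 (SE 0.51) with an adjusted p of 7.96e-05 by edgeR. Lrp1, an endocytic receptor that associates with the beta receptor, fell from 1497 ± 6.78 CPM (SD, n = 2) to 308 ± 32.5 CPM (SD, n = 3), and Nrp1, a co-receptor of growth factors, from 429 ± 118 CPM (SD, n = 2) to 88.5 ± 36.3 CPM (SD, n = 3). Their log2 fold changes were both -2.28, with SEs of 0.24 and 0.42 and adjusted p-values by edgeR of 6.67e-06 and 0.00135. At 96 h, Lrp1 and Nrp1 were still called lower, at -1.41 and -1.53, and Thbs1 higher, at 2.58.

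Sparc, which binds PDGF-B and keeps it from its receptor, was the fourth gene of this list called at 96 h, 2 of them higher and 2 lower, where 5.83% of all genes were called higher and 5.03% lower. It was at 3264 ± 151 CPM at 0 h (SD, n = 2), 1755 ± 87.5 CPM at 12 h (SD, n = 3) and 7019 ± 415 CPM at 96 h (SD, n = 3), a log2 fold change of 1.10 (SE 0.15) at 96 h against 0 h with an adjusted p of 0.000164 by edgeR. Between 12 and 96 h it rose by 2.00 (SE 0.14), with an adjusted p of 1.77e-07 by edgeR. The proteases that release the latent ligands were not called. Plat, a protease that cleaves PDGF-C, and Plau, which cleaves PDGF-D, were at 0 in both libraries at 0 h and at means of 37.1 and 29.9 CPM at 96 h, with adjusted p-values by edgeR of 0.161 and 0.331. Furin, which trims the A and B chains, was at 60.2 CPM at 0 h and 226 CPM at 96 h, with an adjusted p of 0.361 by edgeR. The median log2 fold change of the list was -0.15 at 12 h and 1.51 at 96 h, against 0.00 and 0.07 over all genes tested, with the same medians when genes at 0 in 1 group were set to their bound.

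Of 31 adaptors and effectors of the receptors, all tested, 4 were higher and 7 lower at 12 h and 1 was higher and 4 lower at 96 h. Of all genes, 17.7% were called at 12 h and 10.9% at 96 h. The higher ones at 12 h were the kinase gene Map2k1 (log2 fold change 1.29), the adaptor gene Shc1 (1.20), Nras (1.27) and the Src-family kinase gene Fyn (1.29), with adjusted p-values by edgeR of 0.00288, 0.0188, 0.0199 and 0.0772. The lower ones with the smallest adjusted p were the PI3-kinase genes Pik3r1 (-2.47) and Pik3ca (-1.57), Mapk3 (-1.53) and the adaptor gene Nck2 (-4.84), with adjusted p-values by edgeR of 6.04e-05, 0.00217, 0.00459 and 0.00788. The size of the fall of Nck2 rests on few counts. Its mean at 12 h was 1.57 CPM, and its lowest library, at 0.231 CPM, was under the floor of 3 counts. Pik3r1 and Pik3ca, the regulatory and the catalytic subunit, were also lower at 96 h, at -1.49 and -1.32, as was Fyn (-1.82), while Map2k2 was higher (1.41). Fyn was thus above 0 h at 12 h and below it at 96 h. The median of the list was -0.26 at 12 h, or -0.33 with genes at 0 set to their bound, and -0.01 at 96 h.

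Of 16 negative regulators of receptor tyrosine kinases, all tested, 1 was higher and 1 lower at 12 h, and 0 were higher and 4 lower at 96 h. Of all genes, 8.6% were higher and 9.1% lower at 12 h, and 5.83% were higher and 5.03% lower at 96 h. Errfi1, a feedback inhibitor best known for the EGF receptor, was at 157 ± 10.7 CPM at 0 h (SD, n = 2), 1899 ± 487 CPM at 6 h (SD, n = 3), 1295 ± 457 CPM at 12 h (SD, n = 3) and 139 ± 63.3 CPM at 96 h (SD, n = 3). Its log2 fold change against 0 h was 3.05 (SE 0.46) at 12 h, with an adjusted p of 0.000212 by edgeR, and -0.18 (SE 0.40) at 96 h, with 0.889. Spry1, a feedback inhibitor of Ras signalling, went from 347 ± 24.6 CPM at 0 h (SD, n = 2) to 144 ± 86.0 CPM at 12 h (SD, n = 3) and 39.1 ± 16.5 CPM at 96 h (SD, n = 3), where its log2 fold change was -3.15 (SE 0.48) with an adjusted p of 0.000358 by edgeR. The ERK phosphatase gene Dusp6 (-1.97), the adaptor gene Sh2b3 (-1.44) and Spred1 (-1.01) were the others lower at 96 h, with adjusted p-values by edgeR of 0.00112, 0.0181 and 0.0304. The phosphatases known to act on PDGF receptors, among them Ptpn11 from the list of effectors, were not called at 12 or 96 h. The mean of Ptpn2 was 93.2 CPM at 12 h against 13.5 CPM at 0 h, and these timepoints did not overlap. Its log2 fold change was 2.78 (SE 1.10), with an adjusted p of 0.112 by edgeR. At 12 h, that of Ptpn11 was 0.57 (SE 0.23) and that of Ptpn1 0.001 (SE 0.23). The mean of Ptprj went from 8.26 CPM at 0 h to 2.83 CPM at 12 h. Ptpn1 was called higher at 3 h against 0 h, at 1.49 (SE 0.25) with an adjusted p of 0.00151 by edgeR. From 3 to 6 h it was called lower, at -1.46 (SE 0.21) with an adjusted p of 0.00132 by edgeR. The log2 fold change at 96 h was 0.59 (SE 0.23) for Ptpn11, -0.73 (SE 0.23) for Ptpn1, 0.36 (SE 1.01) for Ptpn2 and 0.25 (SE 1.75) for Ptprj. The median of the list was -0.15 at 12 h and -0.63 at 96 h.

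Of 11 related receptors and VEGF ligands, 10 were tested, and 1 was higher and 1 lower at 12 h and 2 were lower at 96 h, beside the same shares of all genes. At 12 h, Vegfa was higher, with a log2 fold change of 2.73 (SE 0.55) and an adjusted p of 0.00267 by edgeR, and Csf1r, the receptor of macrophages, was lower, at -1.40 (SE 0.53) with 0.0965. At 96 h, Csf1r (-1.92) and the VEGF receptor gene Flt1 (-1.995) were lower, with adjusted p-values by edgeR of 0.0332 and 0.0313. Csf1r is also one of the 10 Kupffer cell markers, whose sum fell after 0 h, and the sum of 10 endothelial markers, from cells that use Flt1, was 832 to 1194 CPM at 0 h and 38.2 to 280 CPM at 96 h. The part of such cells in the lower levels of Csf1r and Flt1 was not tested. The median of the list was -0.50 at 12 h and -0.21 at 96 h, or -1.19 and -0.27 with genes at 0 set to their bound.

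**Figure D5:**
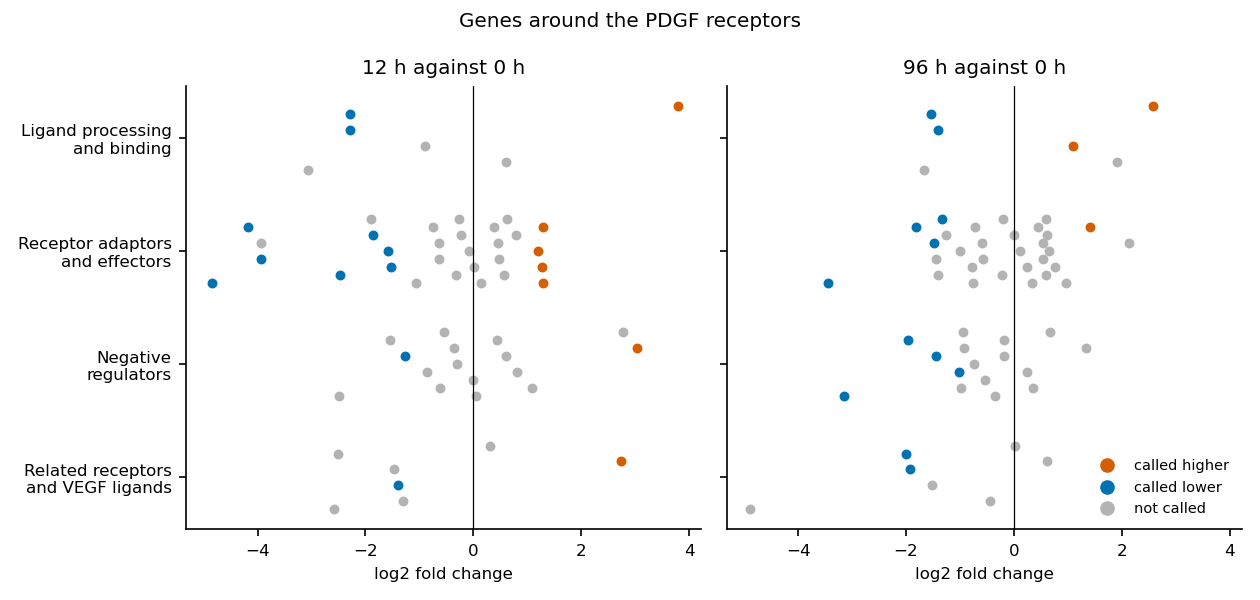
log2 fold change (x axis) at 12 h and at 96 h against 0 h of the genes of 4 lists around the PDGF receptors (rows, with points spread vertically for legibility), coloured by the edgeR call. The 7 genes at 12 h and the 6 at 96 h that were at 0 in every library of a timepoint are not drawn, and at 96 h the negative regulators hold 4 genes called lower and none called higher, where 5.03% of all genes were called lower and 5.83% higher.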

How the data were processed

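HSCs of 19 samples were profiled with the QuantSeq 3′ mRNA-Seq FWD kit and single-end sequencing. According to the methods and the submitters' processing notes, reads were checked and trimmed, mapped to GRCm38.p6 (mm10) with STAR and assembled with StringTie. The counting tool, its annotation release and its strand setting are not given in the sources used here. The authors deposited raw counts per Ensembl gene and sample, whole numbers without normalization, and 55141 of 55487 identifiers matched a symbol.

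Groups, M numbers and isolation dates came from the sample labels. Counts were filtered by timepoint (filterByExpr) and TMM-scaled. All samples entered a single model with time as its only term, and contrasts were tested in edgeR 4.0.16 (quasi-likelihood F test, with limma 3.58.1 and R 4.3.3). Adjusted p-values are Benjamini-Hochberg over 15138 genes per contrast, and calls needed less than 0.1 together with a fold above 2. Likeness between genes is Pearson's r of log2 CPM with a prior count of 2. Depth was 2073171 to 7690892 counts, and the floor is 3 counts per library. No pair of libraries held identical counts. Alternatives were library size or DESeq2 size factors for scaling, no filter, DESeq2 1.42.0, the M number as a block, the isolation date as a covariate, fits of 2 groups, thinning, other thresholds and leaving out each sample. Leaving out all M1 libraries was added after their endothelial transcripts were seen. Steps were tested on simulated data. The biological coefficient of variation of the deposited counts was 1.06, and how the steps perform at that spread was not tested. Same-numbered samples share the number in the labels, and their residuals had a mean correlation of 0.014 over 51 pairs (-0.072 to 0.082), against -0.007 over 103 pairs of different number.

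All members are named in the text, with genes of the surrounding lists called at 12 or 96 h, at most 4 per list and direction by adjusted p, genes whose role in PDGF binding, activation or receptor dephosphorylation is described, and the 3 genes most like each member. A gene that this rule would name is not reported here. The members and lists were chosen with earlier results of these data known. Promoters came from RefSeq, gene positions from GENCODE on GRCm38, and plots were drawn with matplotlib 3.10.9 in Python 3.11.15.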

Additional observations from a re-analysis of the deposited data

How the results depend on the processing

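Fold changes of the members against 0 h and between times in culture were set beside those of the main fit. Direction and side of the limits were the same in 394 of 418 values under alternatives other than leaving out one sample. They were the same in 863 of 908 with one sample left out. The first total includes the fits of 2 groups, which used only the samples compared, and the fit without M1. Both totals include changes that were not called in the main fit. The second also includes fits in which the sample left out belonged to neither group compared, so these shares do not measure how stable a call was. The log2 fold change of Pdgfrb at 3 h, -0.09, turned to 0.020 with the M number as a block and to 0.099 without all M1 libraries, and ranged from -0.20 to 0.12 with one sample left out, above 0 without the M2 library at 0 h or the M1 library at 3 h. At 3 h the number of called members went from 0 to 1 with library size only, DESeq2 size factors, DESeq2, thinning or no fold limit. At 96 h against 12 h it went from 1 to 0 without the filter, with the replicate block, with the isolation date, in the fit of 2 groups, after thinning, at an adjusted p below 0.05 and without M1, and to 3 without the fold limit. At 18 h it went from 4 to 2 without M1. Leaving out one sample gave 0 to 1 called at 3 h, 2 to 3 at 6 h, 3 to 4 at 12 h, 2 to 4 at 18 h, 2 to 3 at 24 h, 2 to 3 at 96 h, and 0 to 1 at 96 h against 12 h. The share of the receptor ratio between timepoints, 37.8%, was 25.01 to 52.88% in these fits and 37.8% when permuted within the pairing by M number (p = 0.396, permutation test). The block changed no other call. Scaling by library size moved the median of all genes by a log2 of 0.24 at 24 h, 0.15 at 96 h and 0.20 at 96 h against 3 h, and Pdgfrb at 18 h then had -0.95, under the fold limit. Pdgfrb at 6 h was called with DESeq2 (-1.01) and with its size factors (-1.02). The causes were not tested. Groups hold 2 or 3 samples, and Pdgfd rests on at most 47 counts in a library.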
